A study of Mus musculus with 11 samples.

Results

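Piwi-interacting RNAs (piRNAs) are small RNAs of the germ line that guide PIWI proteins to transposon transcripts and, in pachytene spermatocytes and round spermatids, to other RNAs. The proteins that make and hold them gather in perinuclear granules, the nuage of spermatocytes and the chromatoid body of round spermatids, where PIWI proteins carrying methylated arginines bind Tudor domain proteins. Male mice that lack such a protein are commonly sterile, with germ cells lost in meiosis or stopped as round spermatids. The genes described here are 10 of this pathway, Piwil1, Piwil2, Mael, Ddx4, Mov10l1, Tdrd1, Tdrd5, Tdrd6, Tdrd7 and Tdrd9. They were chosen by name, as the rows of the count table whose Ensembl identifiers carry these symbols in the GENCODE M21 annotation, and make up 10 of the 23074 genes in the table.

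The samples were decapsulated testes of 5 wild type and 6 Rfx2-/- mice at postnatal day (P) 21, when the first wave of spermatogenesis has brought pachytene spermatocytes and the earliest round spermatids into the tubules. RFX2 is a transcription factor of spermatocytes and round spermatids, and the comparison asks how testis mRNA differs in its absence. In Rfx2-/- mice exon 7, which lies in the DNA binding domain, had been flanked by loxP sites and was removed in the germ line by crossing to an ACTB-cre line that recombines in all tissues, so every cell of the animal carries the deletion. The mixed background line kept the neomycin selection cassette at the locus, according to the study's methods. Both genotypes had a mixed background of C57BL/6, 129/Sv and FVB/N and were littermates of the same age where possible. Each library is a separate mouse, and the whole testis was used, so that fewer cells of a type and less RNA per cell cannot be told apart in any value given here. Between 22232097 and 29769483 reads were counted per mouse, with fewer in Rfx2-/- than in wild type testis (two-sided exact permutation p = 0.0130 over 5 and 6 mice). Levels are given in CPM, the read count of a gene relative to the library size of the mouse after TMM scaling in edgeR. Reads over all exons of Rfx2 itself came to 472, 380.2, 218, 368 and 191 CPM for the wild type mice, replicates 1 to 5, and to 282 to 324 CPM for the Rfx2-/- mice, and such a sum does not check a deletion of 1 exon.

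Wild type replicates 3 and 5 stood apart from the other mice in the markers of pachytene spermatocytes and round spermatids. Summed over 6 genes of pachytene spermatocytes, among them Ldhc and Pgk2, the level was 6134, 5432, 2661, 5284 and 2627 CPM in the wild type mice, and the Rfx2-/- mice lay between 5439 and 7244 CPM. The sum of 9 round spermatid genes was 97.9 and 67.3 CPM in wild type replicates 3 and 5, against 243 to 622 CPM in the other wild type mice and 308 to 993 CPM in Rfx2-/- testis. All 6 pachytene and all 9 round spermatid markers had higher fitted levels in Rfx2-/- testis. The edgeR test described below called 0 of the 6 and 0 of the 9 (2 and 1 had an unadjusted p of at most 0.05), and DESeq2's Wald test and limma voom each called 1 of the 6 and 0 of the 9. For 4 genes of elongating spermatids other mice stood apart: wild type replicate 1 and Rfx2-/- replicate 7 had sums of 137 and 96.6 CPM, against 0.817 to 17.6 CPM in the rest, and 0 of the 4 had a higher fitted level in Rfx2-/- testis. Markers of Sertoli cells, the somatic cells of the tubule, ran the other way: 0 of 8 had a higher fitted level in Rfx2-/- testis, edgeR called 0 (7 had an unadjusted p of at most 0.05, all lower), DESeq2 called 1 and limma voom 0, and their sum was highest, at 1200.2 and 1397 CPM, in wild type replicates 3 and 5. Sums for undifferentiated spermatogonia lay between 94.0 and 112 CPM in wild type and between 98.0 and 108 CPM in Rfx2-/- testis, and those for leptotene and zygotene spermatocytes between 467 and 773 CPM and between 534 and 642 CPM. The sum for 4 genes of differentiating spermatogonia was 394 and 372 CPM in wild type replicates 3 and 5, against 630.4 to 756 CPM in the other wild type mice and 731 to 916 CPM in Rfx2-/- testis, while 3 of the 4 had an unadjusted p of at most 0.05 as lower and 1 as higher in Rfx2-/- testis. Wild type replicates 3 and 5 also had the highest sums of peritubular myoid cell (437 and 481 CPM), macrophage (145 and 157 CPM) and endothelial cell markers (49.1 and 50.9 CPM). Of macrophage and endothelial cell markers, 0 of 6 and 0 of 4 had a higher fitted level in Rfx2-/- testis, and of the Leydig cell markers 1 of 7 did and 1, Hsd3b1, was called lower. No list had a defining marker that was at or under 3 counts in every mouse. The part of these shifts in the results below was not tested, and the results for the 10 genes are also given without wild type replicates 3 and 5, a choice made after seeing the data. Leaving out wild type replicate 1 and Rfx2-/- replicate 7 instead, also chosen after seeing the data, gave 10 of 10 positive fitted differences with a median of 0.36 on the log2 scale and none of the 10 called. In that fit 44.9% of all tested genes were positive and 2.02% were called.

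All 10 genes were abundant. Their raw counts per mouse lay between 5807 and 34894, so that counting error was at most 1.31% of a value. Every gene had a higher fitted level in Rfx2-/- than in wild type testis, by 0.13 to 0.67 on the log2 scale with a median of 0.32, whereas 45.2% of the 15745 tested genes had a higher fitted level and their median log2 fold change was -0.05. None of the 10 passed an adjusted p of 0.01 in edgeR's quasi-likelihood test, at which 2.67% of tested genes were called in either direction and 0.73% as higher. At the same threshold limma voom called 0 of the 10 and 6.66% of all tested genes in either direction. DESeq2's Wald test called 2 of the 10, Ddx4 and Tdrd9, and 12.9% of the genes for which it gave an adjusted p, in either direction. At an adjusted p of 0.05 edgeR called 1 member, Tdrd9, and 6.15% of tested genes as higher. An unadjusted p of at most 0.05 in the higher direction was reached by 6 of the 10 and by 18.1% of tested genes. In 3 genes, Ddx4, Tdrd5 and Tdrd9, all Rfx2-/- mice were above all wild type mice, which held for 6.5% of tested genes. The 95% interval of the fold change stayed wholly within 2-fold for 8 genes and reached past 2-fold higher for Mael and Tdrd6. Without wild type replicates 3 and 5 all 10 fitted differences were still positive, edgeR called 0 of them, the median was 0.16 and the range 0.05 to 0.33, and 607 of all tested genes were called in place of 420.

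**Figure D1:**
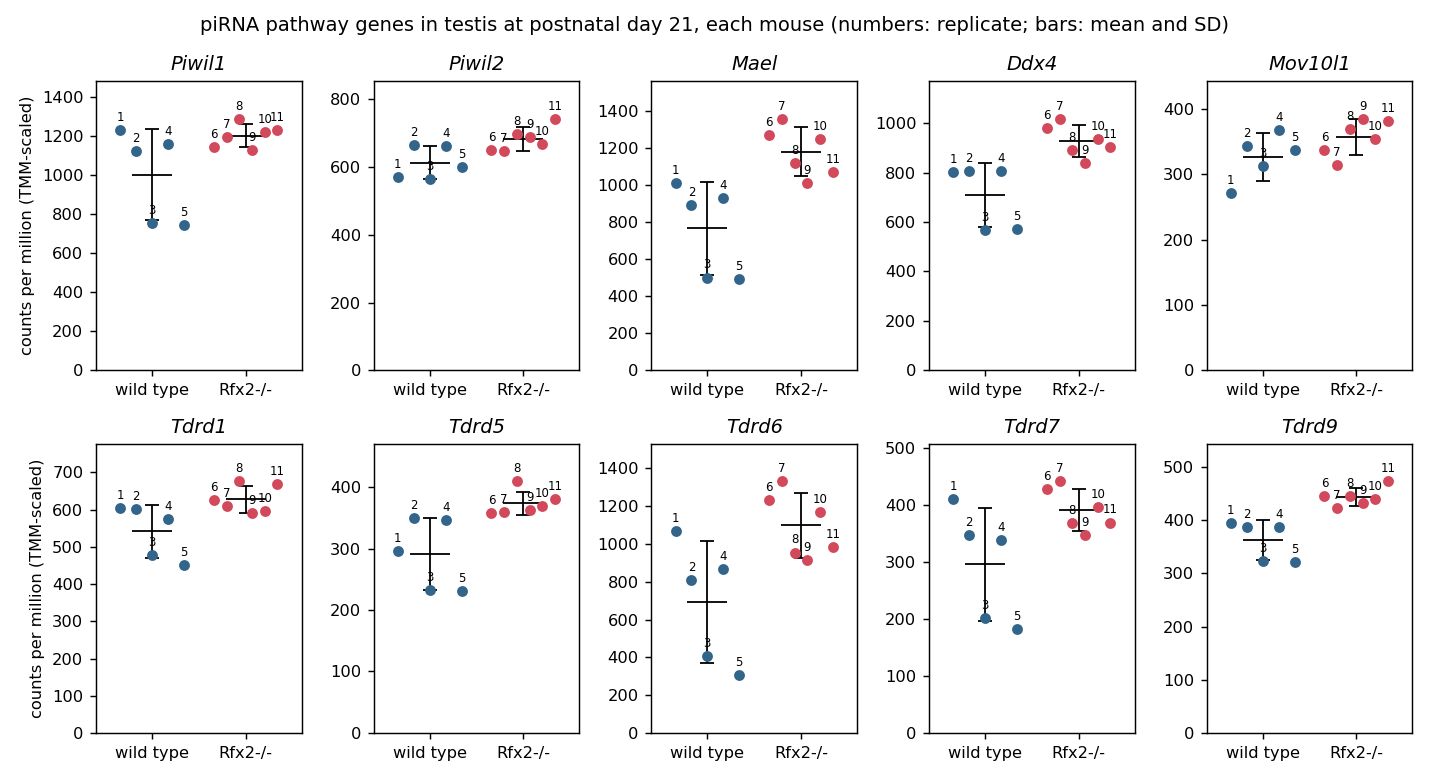
CPM (vertical axes, from 0) of each of the 10 genes in 5 wild type (blue) and 6 Rfx2-/- testes (red), with 1 point per mouse labelled by its replicate number and bars for the mean and SD. Wild type replicates 3 and 5 are the lowest points in 8 panels, all but those of Piwil2 and Mov10l1, and the Rfx2-/- points lie close together.

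PIWIL1 and PIWIL2 (MIWI and MILI) are the PIWI proteins that bind pachytene piRNAs, and PIWIL2 is also made in fetal and earlier postnatal germ cells. Piwil1 (ENSMUSG00000029423, chr5:128702524-128755474 of GRCm38, plus strand) had 1229, 1125, 752, 1157 and 744 CPM in the wild type mice, given in the order of replicates 1 to 5 here and for every gene, and a lowest, median and highest value of 1129, 1206 and 1288 CPM in Rfx2-/- testis. The genotypes overlapped: 3 wild type mice lay in or near the narrow Rfx2-/- range, and replicates 3 and 5 lay far under it. The means were 1001 ± 234 CPM (SD, n = 5) and 1201 ± 58.9 CPM (SD, n = 6), a log2 fold change of 0.26 with a standard error of 0.15 (adjusted p = 0.184, quasi-likelihood test of edgeR, adjusted by the Benjamini-Hochberg method over all tested genes, as for all adjusted p below unless another test is named). Without wild type replicates 3 and 5 the log2 fold change was 0.05.

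For Piwil2 (ENSMUSG00000033644, chr14:70372477-70429383, minus strand) the wild type mice had 569.9, 664, 565, 663 and 599.9 CPM, and the Rfx2-/- mice had a lowest, median and highest value of 647, 679 and 743 CPM. Here replicates 3 and 5 were near replicate 1, and 4 of 6 Rfx2-/- mice lay above the highest wild type mouse. Means of 613 ± 48.6 and 683 ± 35.9 CPM (SD, n = 5 and n = 6) gave a log2 fold change of 0.16, standard error 0.07, adjusted p = 0.132. The sign of this difference depended on the scaling of the libraries, and it was -0.0046 when total counts were used as library sizes. The Piwil1 to Piwil2 ratio within a mouse does not depend on that scaling. On the log2 scale it was 1.11, 0.76, 0.41, 0.80 and 0.31 in wild type replicates 1 to 5 and 0.72 to 0.88 in Rfx2-/- testis. The mean difference was 0.14 (two-sided exact permutation p = 0.314, and 0.314 adjusted over the 2 ratios examined, where the smallest possible p is 0.00216). It became 0.24 (exact p = 0.0381) without wild type replicate 1, 0.069 (exact p = 0.624) without replicate 3, 0.044 (exact p = 0.671) without replicate 5 and -0.08 (exact p = 0.440) without both of the latter.

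MAEL, the mouse maelstrom protein, is a nuage component needed for transposon silencing and for the processing of pachytene piRNA precursors. Mael (ENSMUSG00000040629, chr1:166201201-166238747, minus strand) had 1013, 894, 501, 929 and 494 CPM in wild type and 1009.9, 1186 and 1359 CPM as the lowest, median and highest value in Rfx2-/- testis. Only wild type replicate 1 reached the Rfx2-/- range, and 5 of 6 Rfx2-/- mice were higher than any wild type mouse. Its log2 fold change was 0.62, standard error 0.20, from 766 ± 249 to 1181 ± 134 CPM (SD, n = 5 and n = 6), and missed the threshold with an adjusted p of 0.0577. Without wild type replicates 3 and 5 it was 0.33 (adjusted p = 0.0712).

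Ddx4 encodes the mouse VASA homologue, a DEAD-box RNA helicase of nuage and chromatoid body that is a general germ cell marker. In the wild type mice, Ddx4 (ENSMUSG00000021758, chr13:112598333-112652475, minus strand) had 801, 804, 566, 805 and 570.4 CPM, and in Rfx2-/- testis its lowest, median and highest values were 840.2, 919 and 1018 CPM. The genotypes did not overlap, and wild type replicates 1, 2 and 4 had almost the same level, between 801 and 805 CPM. Ddx4 had a log2 fold change of 0.39, standard error 0.12, with means of 709 ± 129 and 928 ± 63.8 CPM (SD, n = 5 and n = 6). Its adjusted p was 0.0526 in edgeR and 0.00643 in DESeq2's Wald test, and without wild type replicates 3 and 5 the log2 fold change was 0.22 (adjusted p = 0.0668 in edgeR).

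MOV10L1 is the RNA helicase that binds piRNA precursors and passes them into processing. Mov10l1 (ENSMUSG00000015365, chr15:88982909-89055152, plus strand) had 271, 343, 312, 368 and 337 CPM in wild type and 314, 362 and 385 CPM as the lowest, median and highest value in Rfx2-/- testis. It had the smallest fitted difference of the 10, 0.13 with a standard error of 0.09 (means 326 ± 36.9 and 357 ± 27.3 CPM, SD, n = 5 and n = 6; adjusted p = 0.269). The lowest mouse was wild type replicate 1, and replicates 3 and 5 lay inside the Rfx2-/- range or just under it. Like that of Piwil2, its difference was negative with total counts as library sizes, at -0.03. Leaving out wild type replicate 1 alone brought it to 0.070 (adjusted p = 0.468).

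The other 5 genes encode proteins with Tudor domains. TDRD1 binds the methylated arginines of PIWIL2 in the nuage between mitochondria. Tdrd1 (ENSMUSG00000025081, chr19:56826209-56870012, plus strand) had 604, 601, 479, 574 and 450.0 CPM in wild type and 592, 618 and 676 CPM as the lowest, median and highest value in Rfx2-/- testis. Wild type replicates 1, 2 and 4 lay inside the Rfx2-/- range or just under it, and the log2 fold change was 0.21, standard error 0.09 (means 542 ± 72.1 and 628 ± 36.1 CPM, SD, n = 5 and n = 6; adjusted p = 0.111). It was 0.093 (adjusted p = 0.381) without wild type replicates 3 and 5.

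TDRD9 is a Tudor protein with a helicase domain that acts in transposon silencing. For Tdrd9 (ENSMUSG00000054003, chr12:111971559-112068854, plus strand) the wild type mice had 395, 387, 323, 387 and 322 CPM, and the lowest, median and highest Rfx2-/- mice had 424, 443 and 473 CPM. The genotypes did not overlap, and the SD in Rfx2-/- testis was 3.75% of the mean, the smallest of the 10 genes in either genotype. With means of 363 ± 36.7 and 443 ± 16.6 CPM (SD, n = 5 and n = 6), a log2 fold change of 0.29 and a standard error of 0.07, Tdrd9 had the lowest adjusted p of the 10, 0.0319. Without wild type replicates 3 and 5 the log2 fold change was 0.20 and the adjusted p 0.0310. Over the 22 alternatives the adjusted p lay between 0.000290 and 0.0893, and DESeq2's Wald test alone put it under 0.01.

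TDRD5 is needed for transposon silencing, for pachytene piRNAs and for round spermatids to go on to elongate. Tdrd5 (ENSMUSG00000060985, chr1:156255296-156303664, minus strand) had 296, 349, 233, 347 and 231 CPM in wild type and 358, 366 and 409 CPM as the lowest, median and highest value in Rfx2-/- testis. The groups did not overlap, although replicates 2 and 4 came close to the lowest Rfx2-/- mouse. The log2 fold change was 0.36, standard error 0.12 (means 291 ± 57.9 and 373 ± 19.3 CPM, SD, n = 5 and n = 6; adjusted p = 0.0598), and 0.19 (adjusted p = 0.124) without wild type replicates 3 and 5. In the annotation, 176 nt of Tdrd5 exons lie opposite the antisense gene 4930518J20Rik, whose reads cannot be told from those of Tdrd5 if strand was not used in counting, which is not given in the sources used here.

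TDRD6 and TDRD7 are building blocks of the chromatoid body of spermatids, and TDRD7 also acts in the lens. Tdrd6 (ENSMUSG00000040140, chr17:43615335-43630299, minus strand) had 1067, 811, 404, 865 and 305 CPM in wild type and 915, 1077 and 1331 CPM as the lowest, median and highest value in Rfx2-/- testis. It had both the largest fitted difference and the widest spread of the 10: the highest of the 11 mice had 4.36 times the level of the lowest, and wild type replicate 1 lay inside the Rfx2-/- range. The log2 fold change of 0.67 had a standard error of 0.29 (means 690.5 ± 323 and 1098 ± 170 CPM, SD, n = 5 and n = 6; adjusted p = 0.111) and was 0.27 (adjusted p = 0.266) without wild type replicates 3 and 5.

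Tdrd7 (ENSMUSG00000035517, chr4:45965334-46034761, plus strand) had the same outline at a lower level, with 409.8, 348, 201, 339 and 183 CPM in wild type and 348, 383 and 441 CPM as the lowest, median and highest value in Rfx2-/- testis. Wild type replicate 1 exceeded 4 of the 6 Rfx2-/- mice. The log2 fold change was 0.40, standard error 0.20 (means 296 ± 99.2 and 392 ± 37.0 CPM, SD, n = 5 and n = 6; adjusted p = 0.143), and 0.11 (adjusted p = 0.504) without wild type replicates 3 and 5.

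The log2 ratio of Tdrd6, a gene of late spermatocytes and spermatids, to Tdrd1 was 0.82, 0.43, -0.24, 0.59 and -0.56 in wild type replicates 1 to 5 and 0.50 to 1.12 in Rfx2-/- testis. Replicates 3 and 5 had the lowest ratios of all 11 mice. The genotypes differed by 0.58, and the two-sided exact permutation p of 0.0433 became 0.0866 when adjusted over the 2 ratios. They differed by 0.18 (exact p = 0.321) without wild type replicates 3 and 5.

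**Figure D2:**
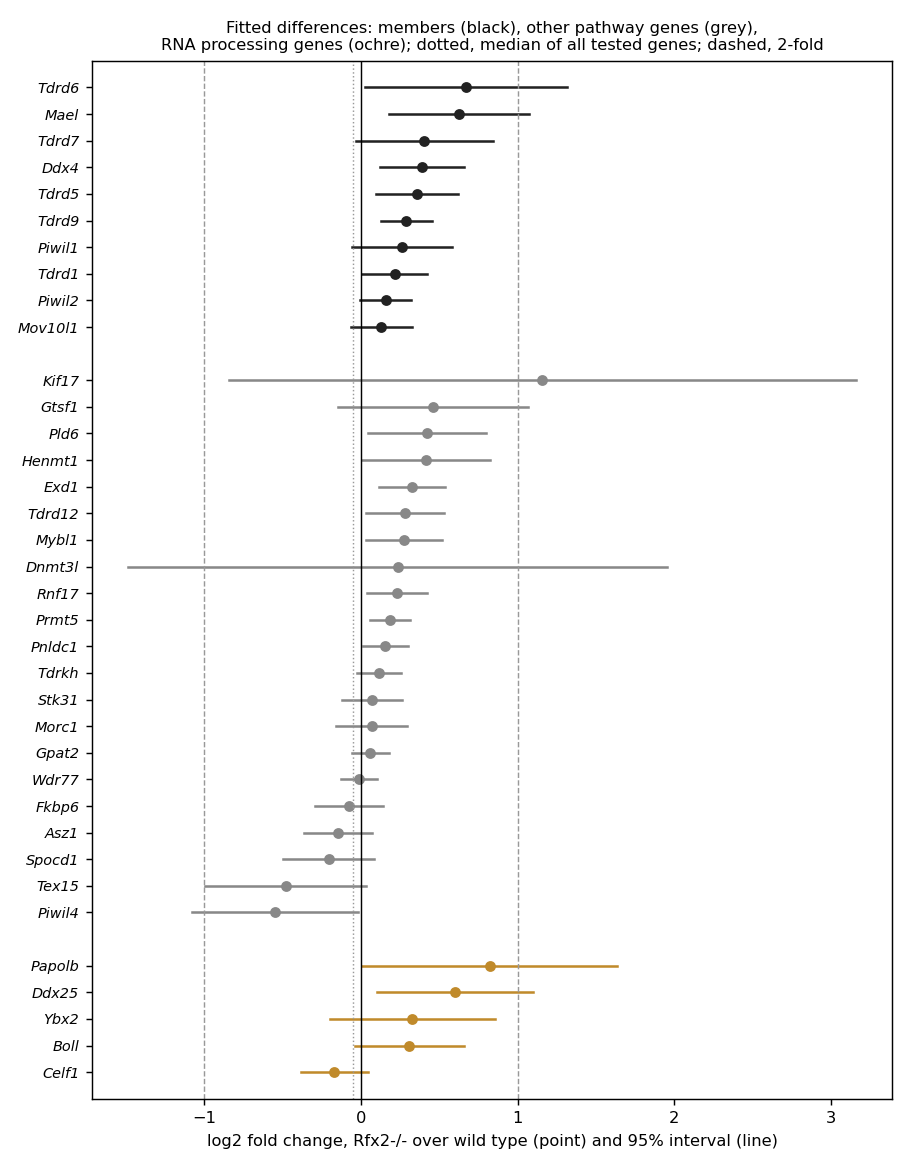
Fitted log2 fold change of Rfx2-/- over wild type testis (horizontal axis; points) with its 95% interval (lines) for the 10 genes (black), 21 other pathway genes (grey) and 5 RNA processing genes (ochre), with the median of all tested genes at -0.05 (dotted) and 2-fold (dashed). All 10 black points lie right of 0, 6 of their intervals leave out 0, and the widest grey interval is that of Kif17.

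Per length of exon, the same 3 genes came first in both genotypes. In CPM per kb of merged exons, Mael was highest, with a mean of 442 in wild type and 681 in Rfx2-/- testis, followed by Ddx4 (235 and 308) and Piwil1 (229.8 and 276). Mael lay above Ddx4 in all 11 mice, and its range did not overlap that of Ddx4 in either genotype. The ranges of Ddx4 and Piwil1 overlapped in both, although Ddx4 was above Piwil1 in 4 of 5 wild type and 6 of 6 Rfx2-/- mice. The other genes had means between 75.4 (Tdrd9) and 116 (Piwil2) in wild type and between 86.3 (Mov10l1) and 155 (Tdrd6) in Rfx2-/- testis, and each of these overlapped the next in the order. Tdrd6, at 97.8 in wild type, stood next after Piwil1 in Rfx2-/- testis, and Mov10l1 was last.

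A feature shared by the 10 genes was their spread among mice. How many of all tested genes had the same spread, or the same lowest mice, was not counted. The pattern is therefore not shown to be particular to the 10. The SD relative to the mean was larger in wild type than in Rfx2-/- testis for 10 of 10 genes, from 7.93% (Piwil2) to 46.8% (Tdrd6) in wild type and from 3.75% (Tdrd9) to 15.5% (Tdrd6) in Rfx2-/- testis. For 8 genes wild type replicates 3 and 5 were the lowest of the 11 mice, the exceptions being Piwil2 and Mov10l1. Centred on each gene's mean over all mice, the log2 CPM of the 10 genes averaged -0.52 and -0.57 in wild type replicates 3 and 5, between 0.00 and 0.02 in the other wild type mice and between 0.09 and 0.21 in Rfx2-/- testis. The same 2 mice had the lowest sums for markers of pachytene spermatocytes and round spermatids. For differentiating spermatogonia they also had the lowest sum. However, 3 of those 4 genes had an unadjusted p of at most 0.05 as lower in Rfx2-/- testis in edgeR's test. Their sums of Sertoli, peritubular myoid, macrophage and endothelial cell markers were the highest of the 11 mice. The part of these markers in the spread was not tested. When the pachytene marker level of each mouse was added to the fit as a covariate, the median log2 fold change of the 10 genes was 0.12, with Piwil1 (-0.03) and Tdrd7 (-0.02) under 0. None of the 10 passed an adjusted p of 0.05 in that fit, and 8.18% of all tested genes did, in either direction. Of the 10, Tdrd9 had the lowest adjusted p there, 0.0644, at a log2 fold change of 0.16. With the round spermatid marker level instead, all 10 were positive and the median was 0.23. Of the 10 only Tdrd9 passed an adjusted p of 0.05, at 0.0459, as did 15.3% of all tested genes in either direction.

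**Figure D3:**
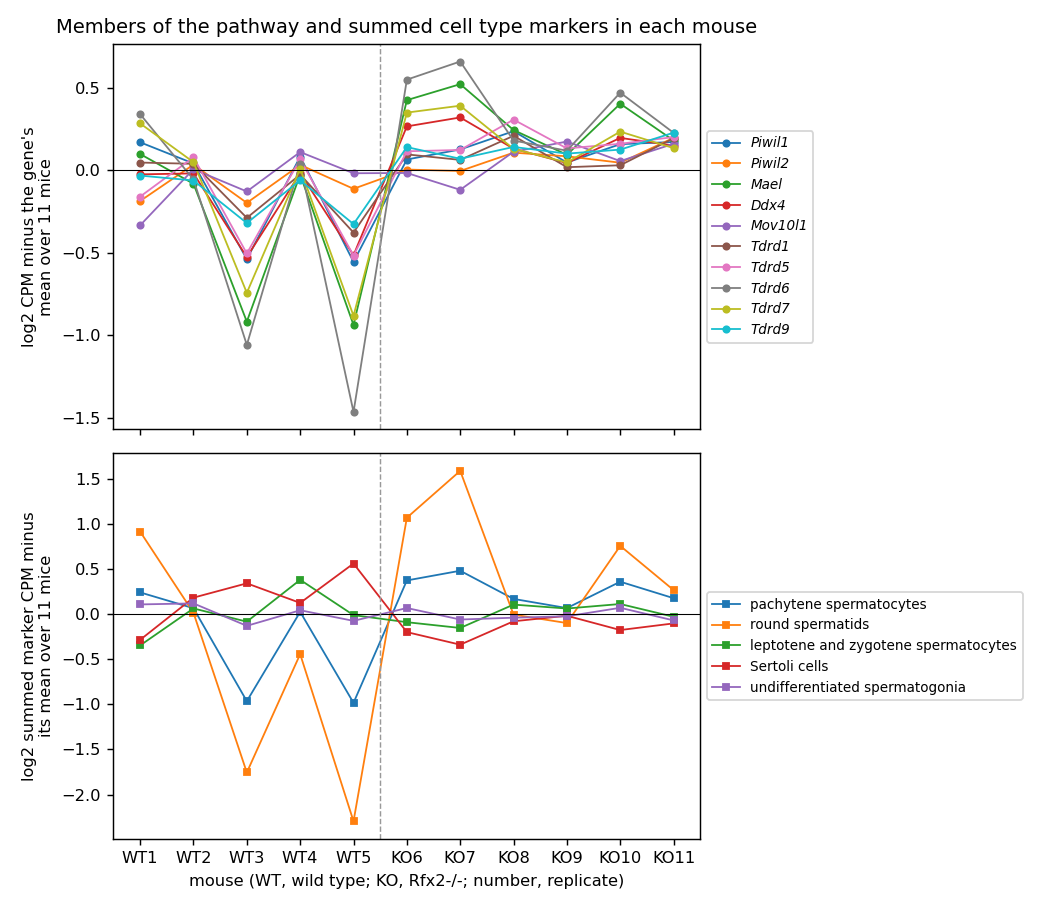
Log2 CPM of the 10 genes (upper panel) and log2 of the summed CPM of 5 marker lists (lower panel) in each mouse, each centred on its mean over 11 mice. Lines join the values of 1 gene or list, and the mice have no order; wild type replicates 3 and 5 are low for most of the 10 genes and for both pachytene and round spermatid markers, and high for Sertoli cell markers.

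Among the 10 genes, the pair with the most alike values over the 11 mice was Tdrd1 and Tdrd9, whose centred log2 CPM differed by a root mean square of 0.06, followed by Piwil2 and Mov10l1 at 0.08. Tdrd6 was the least like any other, at 0.19 from Mael, its nearest. For each member the nearest 2 of all other tested genes were at 0.03 to 0.05, nearer than any of the 10. Those 2 were picked from all tested genes outside the 10, and the nearest member from the few within them. Searches of such unlike size cannot show how alike the members are. Mael was nearest to Syce1, which encodes a central element protein of the synaptonemal complex, and to a gene without a symbol in the annotation (ENSMUSG00000095832). Piwil2 was nearest to Msh4, a meiotic recombination gene, and to Pcgf5. Mov10l1 came closest to Asf1b, a histone chaperone gene, and Tex101, a germ cell surface protein gene. The others were nearest to Exoc8 and Pcgf6 (Piwil1), Idh3b and Ppm1b (Ddx4), Acvr1b and Myt1l (Tdrd1), Ift80 and Tmem18 (Tdrd5), Svip and Phkg2 (Tdrd6), Upf3a and Ranbp9 (Tdrd7) and Ppp1r12c and Snx11 (Tdrd9). The adjusted p of these 20 genes lay between 0.0211 and 0.581.

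Of 22 further genes of the pathway, 21 were in the table under their symbols and all 21 were tested. At an adjusted p of 0.01 edgeR and limma voom called none of them, against 2.67% and 6.66% of all tested genes. DESeq2's Wald test called 2, Exd1 and Prmt5, against 12.9% of all genes with an adjusted p. An unadjusted p of at most 0.05 was reached by 8 higher genes and 1 lower gene in edgeR's test. Of all tested genes 18.1% reached it as higher, and the share that reached it as lower is not given here. In all, 15 had a higher and 6 a lower fitted level in Rfx2-/- testis, with a median log2 fold change of 0.16. With total counts as library sizes 10 of the 21 were higher, as were 31.2% of all tested genes, against 45.2% of them in the reported fit. Without wild type replicates 3 and 5, 16 of the 21 were higher and the median was 0.097, and with the pachytene marker covariate it was 0.068. The largest fitted difference was that of Kif17, a kinesin motor gene also known for the chromatoid body, at 1.16 with a standard error of 0.91 (31.9 ± 42.3 and 71.1 ± 67.1 CPM, SD, n = 5 and n = 6; adjusted p = 0.339). Its values ran from 5.88 to 105 CPM in wild type and from 13.8 to 188 CPM in Rfx2-/- testis. Piwil4, the PIWI gene of fetal prospermatogonia, was low, at 2.29 to 5.05 CPM in wild type and 1.86 to 3.20 CPM in Rfx2-/- testis, with a log2 fold change of -0.55, standard error 0.24 (adjusted p = 0.110). Tex15, which acts in meiotic recombination and in piRNA-guided silencing, had 304 ± 121 and 218 ± 33.7 CPM (SD, n = 5 and n = 6), a log2 fold change of -0.48, standard error 0.23, adjusted p = 0.139. Genotypes did not overlap for 2 of the 21, Pld6 and Exd1, both higher in Rfx2-/- testis, a direction in which 6.5% of all tested genes did not overlap. Pld6, a mitochondrial enzyme gene of primary piRNA processing, had 47.0 to 86.1 and 88.2 to 104 CPM (adjusted p = 0.0930), and Exd1, of a complex that acts in the making of antisense piRNAs, had 35.3 to 50.7 and 51.0 to 59.3 CPM (adjusted p = 0.0457). These 2, and Mybl1 below, were singled out after their values were seen. Of 5 other RNA processing genes whose mutants also stop before spermatids elongate, 4 had a higher fitted level in Rfx2-/- testis, edgeR and DESeq2 called 0 of the 5 (2 had an unadjusted p of at most 0.05 in edgeR), and the median was 0.33. When wild type replicates 3 and 5 were left out, 3 of the 5 were higher and the median was 0.060, and with the pachytene marker covariate it was 0.022. Their 3 largest fitted differences were those of Papolb, a cytoplasmic poly(A) polymerase gene (0.82, standard error 0.37, adjusted p = 0.117), Ddx25, an RNA helicase gene (0.60, standard error 0.23, adjusted p = 0.0802), and Ybx2, of a protein that stores germ cell mRNA (0.33, standard error 0.24, adjusted p = 0.304).

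RFX proteins bind the X-box, an inverted repeat, and A-MYB, the product of Mybl1, is known to drive the promoters of many pachytene piRNA genes and of pathway genes. Mybl1 had 142 ± 28.1 and 171 ± 7.94 CPM (SD, n = 5 and n = 6), a log2 fold change of 0.27, standard error 0.11, adjusted p = 0.0924. The 250 bases before each RefSeq transcript start of the GRCm38.p6 assembly were searched for these motifs on both strands. The table used held 12 such windows for 8 of the 10 genes, without Piwil2 and Tdrd6. The full X-box, GTTNCC and GGNAAC with any 2 bases between them, was in none of the 12 and in 0.374% of the 32851 windows of all genes. GTTGCC, 1 form of the arm GTTNCC, was in none of the 12 and in 10.4% of all windows. Other forms of the arm were not counted, and a window of Tdrd7, for example, holds GTTTCC. The MYB motif AACNGNC was in 9 of the 12 windows, from 7 of the 8 genes, against 27.7% of all windows and 30.6% of the 27025 genes with a window. Some windows of a gene overlap, so they are not independent. Tdrd1 and Tdrd7 had 3 windows each, and a gene with more windows has more places for a match. Of the windows with a match, that of Tdrd5 lay in annotated exons over all its 250 bases. Those of Piwil1 and Mov10l1, among others, did so in part, over 106 and 85 bases. Ddx4 was the gene without a match. Such a match is a description of letters, not a binding site. The windows of Tdrd9, the 1 gene of the 10 past an adjusted p of 0.05, and of Tdrd1, whose values were most like it, are shown as examples with and without the motif. They lie at chr12:111971309-111971558 for Tdrd9 and, for 2 starts of Tdrd1, at chr19:56825959-56826208 and chr19:56830462-56830711, all on the plus strand, and no base of them is in an annotated exon. Capitals mark a match to the MYB motif on either strand, which begins 7 bases before the start in Tdrd9 and 122 bases before the later start of Tdrd1.
Tdrd9: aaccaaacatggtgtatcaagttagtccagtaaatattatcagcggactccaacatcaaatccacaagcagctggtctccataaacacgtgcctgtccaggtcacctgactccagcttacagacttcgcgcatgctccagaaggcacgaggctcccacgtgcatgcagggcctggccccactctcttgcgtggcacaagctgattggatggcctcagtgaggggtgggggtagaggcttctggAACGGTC
Tdrd1, earlier start: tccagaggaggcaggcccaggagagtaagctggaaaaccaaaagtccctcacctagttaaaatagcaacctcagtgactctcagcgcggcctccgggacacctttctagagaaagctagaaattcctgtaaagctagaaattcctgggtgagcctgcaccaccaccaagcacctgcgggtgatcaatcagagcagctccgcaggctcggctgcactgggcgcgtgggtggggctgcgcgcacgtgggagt
Tdrd1, later start: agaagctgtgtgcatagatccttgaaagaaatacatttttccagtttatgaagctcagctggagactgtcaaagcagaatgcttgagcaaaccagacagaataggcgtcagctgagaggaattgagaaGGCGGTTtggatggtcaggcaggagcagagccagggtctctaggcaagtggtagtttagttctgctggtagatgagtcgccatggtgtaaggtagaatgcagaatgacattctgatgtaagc

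Of the 22 alternatives to the fit, 20 gave positive fitted differences for all 10 genes, and total counts as library sizes and the pachytene marker covariate each gave 8. In the latter fits 31.2% and 46.3% of all tested genes were positive, in that order, against 45.2% in the reported fit. The median of the 10 genes lay 0.39 and 0.14 above that of all tested genes, against 0.38 in the reported fit. The largest movement was in Tdrd6, with a log2 fold change between 0.08 and 0.88, and in Tdrd7, between -0.02 and 0.55. Leaving out each mouse in turn kept Tdrd9 between 0.26 and 0.32, Ddx4 between 0.33 and 0.44 and Mael between 0.51 and 0.74.

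**Figure D4:**
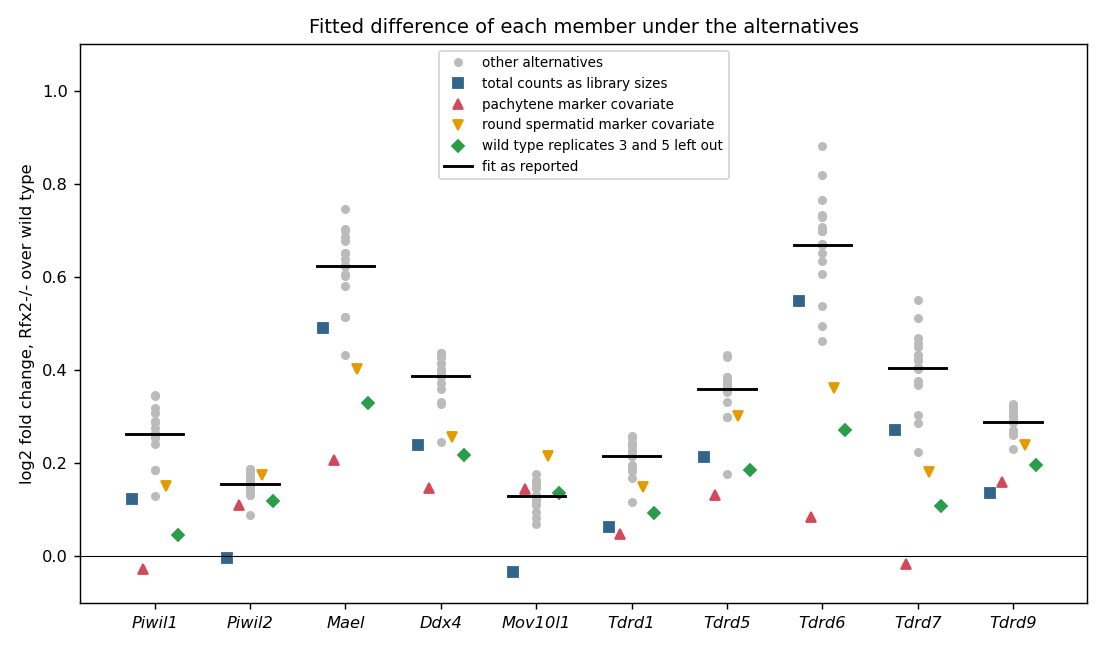
Fitted log2 fold change of Rfx2-/- over wild type testis (vertical axis) for each of the 10 genes under the reported fit (black bars), 4 named alternatives (coloured) and the remaining ones (grey). Total counts as library sizes put Piwil2 and Mov10l1 under 0, the pachytene marker covariate put Piwil1 and Tdrd7 under 0, and leaving out wild type replicates 3 and 5 brought every gene but Mov10l1 closer to 0.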

How the data were processed

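Testis RNA of 5 wild type and 6 Rfx2-/- mice at P21 was sequenced from TruSeq libraries. The values deposited are raw counts of 23074 genes per mouse, which the authors made without normalization. The submitters' processing notes name CASAVA 1.8.2, STAR 2.4 and featureCounts 1.4.6 and the build GRCm38. By the study's methods, reads at several positions and reads over exons of different genes were not counted, which lowers counts of near-identical copies. No exon of the 10 genes overlaps one of another counted gene.

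All genes were fitted together with edgeR 4.0.16 in R 4.3.3 (filterByExpr, TMM with factors of 0.894 to 1.18, glmQLFit, glmQLFTest, no covariates, Benjamini-Hochberg adjustment over 15745 tested genes). All 10 members passed the filter. A gene was called at an adjusted p of at most 0.01. Total counts were 26925157 to 29769483 in wild type and 22232097 to 27116903 in Rfx2-/- testis, and counting errors cover counting only. Ratios used log2 CPM with a prior count of 2. The alternatives used DESeq2 1.42.0 and limma 3.58.1 voom, among others, and the tests were tried on simulated data. Named genes were the 10 members, Rfx2, called genes and the 3 largest absolute fold changes of each list, and the 2 nearest genes of each member. Members and lists were chosen with earlier results of these data known. Positions came from GENCODE M21 and promoter windows from RefSeq, and no protein sequences were used here.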

Additional observations from a re-analysis of the deposited data

How the results depend on the processing

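No paired analysis was possible because the sample labels name no litter or other pairing of the mice. Under the 22 alternatives to the fit and 2 other thresholds, members and other pathway genes were called only with DESeq2's Wald test (2 and 2), an adjusted p of 0.05 (1 and 1) and an unadjusted p of 0.01 (2 and 2). Against 420 of all genes, 2032 were called by DESeq2's Wald test, 1049 by limma voom, 863 and 649 with the round spermatid and pachytene marker covariates, 2350 at an adjusted p of 0.05, 2784 at an unadjusted p of 0.01, 229 to 585 when each mouse was left out in turn, and, as choices made after seeing the data, 607 without wild type replicates 3 and 5 and 316 without wild type replicate 1 and Rfx2-/- replicate 7. Signs turned for Piwil1 (-0.026) and Tdrd7 (-0.016) with the pachytene marker covariate and for Piwil2 (-0.0046) and Mov10l1 (-0.034) with total counts as library sizes, which moved the median of all genes from -0.05 to -0.22. Leaving out each mouse, the Tdrd6 to Tdrd1 ratio differed by 0.39 to 0.74 (exact p = 0.0143 to 0.110) and the Piwil1 to Piwil2 ratio by 0.044 to 0.24 (exact p = 0.0381 to 0.671). Without wild type replicates 3 and 5, chosen after seeing the data, they differed by 0.18 (exact p = 0.321) and -0.076 (exact p = 0.440). For each of these changes the cause was not tested.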
